A study of Mus musculus with 13 samples.

Results

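The MEF2 family of transcription factors was represented by 3 genes, Mef2a, Mef2c and Mef2d, taken by name from a table of 24015 mouse gene symbols. Of these symbols 12536, all 3 members among them, had enough reads to be tested. The members were chosen by their read levels in these same libraries, so their values are given as a description, with fold changes and standard errors (SE) but without a test. The 3 groups were PLT-HSC (3 libraries), PEM-HSC (6 libraries) and MUL-HSC (4 libraries). Each library was made from 100 haematopoietic stem cells (HSCs) of C57BL/6 mice, sorted from the bone marrow of recipients that had been given 1 Vwf+ HSC. Over 16 weeks the recipients' blood had been P-restricted for PLT-HSC, PEM-restricted for PEM-HSC and multilineage for MUL-HSC. All groups shared the sorted phenotype LSKFlt3-CD150+CD48-CD45.2+Gata1-. The labels do not say whether libraries of a group came from separate recipients, so their spread, and every p-value that rests on it, may be technical in part.

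MEF2 proteins bind an AT-rich DNA element as dimers, through a MADS box, a DNA-binding domain shared with serum response factor. Class IIa histone deacetylases hold them in a repressed state, and calcium, calcineurin and MAP kinase signals release that repression. In mouse blood, Mef2c is known from gene deletion to be needed for normal B-cell and megakaryocyte development, while Mef2a and Mef2d are widely expressed members that can bind the same element.

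Windows around annotated start sites of Mef2a and Mef2c are shown because 1 of them holds the element that MEF2 proteins themselves bind. They are from RefSeq on build GRCm38.p6, later than the mm9 build named for the counts. Each runs 5′ to 3′ from 250 bases before to 50 bases after a start site, and capitals mark a match to the MEF2 consensus. Mef2c has 3 such windows, and its deposited counts do not tell which start was used.
Mef2a (chr7:67372809-67373108, minus strand): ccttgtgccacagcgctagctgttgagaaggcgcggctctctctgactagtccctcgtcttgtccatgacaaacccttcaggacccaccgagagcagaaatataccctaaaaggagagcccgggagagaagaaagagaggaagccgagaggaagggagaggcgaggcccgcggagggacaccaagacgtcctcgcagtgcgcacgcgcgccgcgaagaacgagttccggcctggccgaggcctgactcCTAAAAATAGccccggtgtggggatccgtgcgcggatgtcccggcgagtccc
Mef2c, window 1 (chr13:83503784-83504083, plus strand): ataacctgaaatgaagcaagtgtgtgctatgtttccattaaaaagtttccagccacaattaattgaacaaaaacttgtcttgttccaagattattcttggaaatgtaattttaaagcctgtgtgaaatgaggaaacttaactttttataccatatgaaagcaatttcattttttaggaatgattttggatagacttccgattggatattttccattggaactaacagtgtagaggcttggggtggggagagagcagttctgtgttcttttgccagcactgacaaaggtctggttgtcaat
Mef2c, window 2 (chr13:83523406-83523705, plus strand): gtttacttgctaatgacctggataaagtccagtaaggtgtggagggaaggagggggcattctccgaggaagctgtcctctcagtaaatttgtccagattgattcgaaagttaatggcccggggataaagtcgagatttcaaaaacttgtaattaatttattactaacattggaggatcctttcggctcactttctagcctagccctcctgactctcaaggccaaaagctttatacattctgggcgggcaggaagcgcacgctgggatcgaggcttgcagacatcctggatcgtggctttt
Mef2c, window 3 (chr13:83573357-83573656, plus strand): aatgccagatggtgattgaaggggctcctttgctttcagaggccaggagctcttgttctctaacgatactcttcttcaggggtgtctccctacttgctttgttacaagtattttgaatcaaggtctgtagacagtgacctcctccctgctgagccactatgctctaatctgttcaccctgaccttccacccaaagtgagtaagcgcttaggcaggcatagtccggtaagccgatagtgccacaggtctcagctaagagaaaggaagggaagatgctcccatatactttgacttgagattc

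The Mef2a window holds CTAAAAATAG, beginning 2 bases before the start site and running across it. On both strands this string of 10 bases occurred in 36 of 32851 windows of 300 bases (0.11%), and the wider MEF2 consensus, which includes it, in 1047 windows (3.19%). The string was taken from the Mef2a window itself, so only the share of the consensus serves as a background for the match. The 3 Mef2c windows and the single Mef2d window on chromosome 3 hold no match to the consensus. Matches to the CArG box, the element of serum response factor (1.63% of all windows), and to the PU.1 string GAGGAAGT (3.2% of all windows), on both strands, were found in none of the 5 windows. For PU.1 only this exact string of 8 bases was searched, so shorter or variant sites were not counted. The share of G and C was 62.3% in the Mef2a window and 72% in the Mef2d window, against 35.7%, 47% and 48.3% in the 3 Mef2c windows as printed. A match is a feature of these letters and not a measured binding site.

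Libraries held 16371921 to 41367057 gene counts, with 11233 to 12310 genes detected, and levels are given as CPM, in which the gene counts of each library are scaled to the same sum. Each library had reads of 7 HSC markers (Kit, Ly6a, Slamf1, Procr, Hlf, Mecom and Hoxb5), and their sum was 1635 to 2570 CPM for PLT-HSC, 1418 to 2190 CPM for PEM-HSC and 1135 to 1714 CPM for MUL-HSC. Flt3, Cd48 and Gata1, against which the cells had been sorted, summed to 6.47 to 24.97 CPM for PLT-HSC, 2.94 to 22.4 CPM for PEM-HSC and 13.4 to 89.7 CPM for MUL-HSC. Libraries differed widely in mitosis genes within every group: the mean log2 CPM of 18 such genes ran from -1.11 to 5.597 for PLT-HSC, from 2.37 to 6.27 for PEM-HSC and from 1.11 to 5.75 for MUL-HSC. MUL-HSC replicates 1 and 2 stood apart in earlier results of these data, so values without both are given where they bear on a member.

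Mef2c was higher in PLT-HSC than in either other group, and its mean for PEM-HSC exceeded that for MUL-HSC. It stood at 435, 341 and 368 CPM in PLT-HSC replicates 1, 2 and 3. In PEM-HSC it ran from 171 CPM in replicate 4 to 312 CPM in replicate 5, with a median of 253 CPM. In MUL-HSC replicates 1 to 4 it stood at 148, 188, 128 and 136 CPM. Every PLT-HSC library lay above all PEM-HSC and all MUL-HSC libraries, while PEM-HSC and MUL-HSC overlapped, since PEM-HSC replicate 4 lay below MUL-HSC replicate 2. These levels rest on 2093 to 12636 reads of Mef2c per library, so counting error was small beside the spread between libraries.

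**Figure D1:**
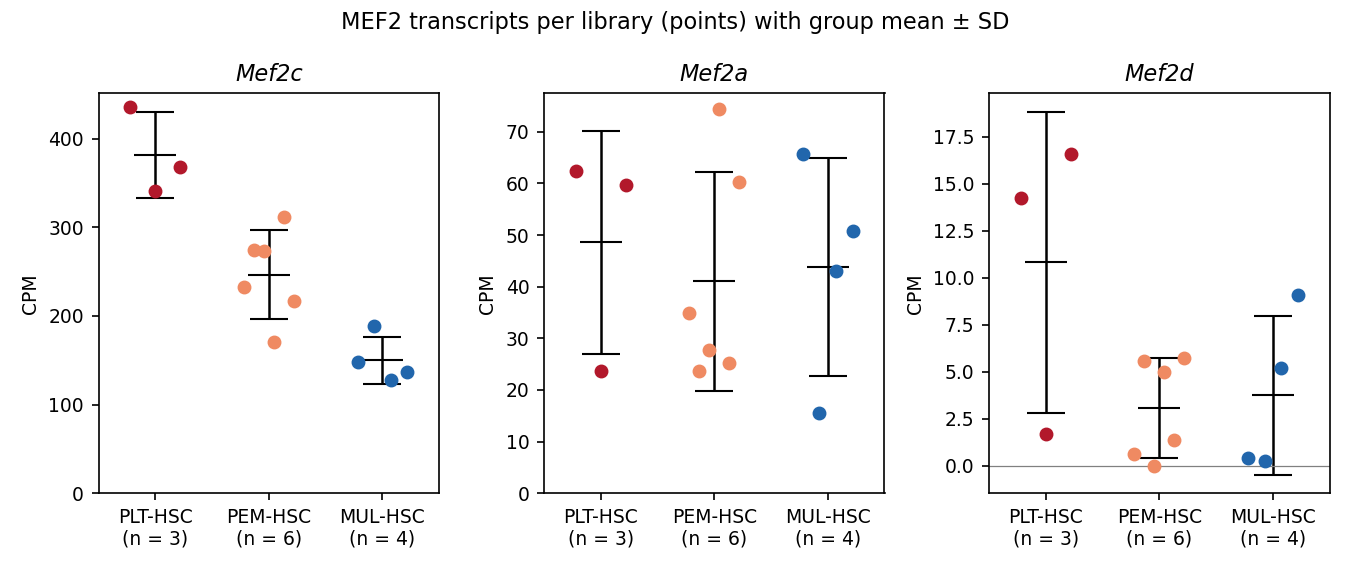
CPM of Mef2c, Mef2a and Mef2d (vertical axes) in each library (points), with the group mean and SD (black bars), for PLT-HSC (n = 3), PEM-HSC (n = 6) and MUL-HSC (n = 4). Mef2c stands at 341 to 435 CPM for PLT-HSC, above the 171 to 312 CPM of PEM-HSC and the 128 to 188 CPM of MUL-HSC, while the groups overlap for Mef2a and Mef2d.

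Mef2c averaged 382 ± 48.5 CPM (SD) over the 3 PLT-HSC libraries, 247 ± 49.9 CPM over the 6 PEM-HSC libraries and 150 ± 26.7 CPM over the 4 MUL-HSC libraries. The mean in PLT-HSC was 2.54 times that in MUL-HSC, with a fitted log2 fold change of 1.33 (SE 0.23). The mean in PEM-HSC was 1.64 times that in MUL-HSC, with a log2 fold change of 0.69 (SE 0.20). The mean in PLT-HSC was 1.55 times that in PEM-HSC, with a log2 fold change of 0.64 (SE 0.21). Both comparisons with MUL-HSC use the same 4 MUL-HSC libraries and are not independent. In bulk RNA, fewer cells that express a gene and less of its RNA per cell cannot be told apart.

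Among all tested genes 23.1% had group means in the order of Mef2c, highest in PLT-HSC and lowest in MUL-HSC. In 0.455% of them every PLT-HSC library lay above every library of both other groups.

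The spread of Mef2c within groups was small. Its coefficient of variation was 12.7% for PLT-HSC, 20.3% for PEM-HSC and 17.8% for MUL-HSC. The fitted biological coefficient of variation was 0.242, lower than that of all but 4.84% of tested genes, whose median was 0.624. That rank is over genes of all read levels, and Mef2c was not set against genes of similar level. By CPM, which is not scaled to gene length, Mef2c ranked above 95.7% to 97.3% of tested genes in PLT-HSC libraries, 88.6% to 95.2% for PEM-HSC libraries and 84.0% to 89.7% for MUL-HSC libraries.

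Among markers of other cell classes, Cd68 of the monocyte and macrophage list stood lower in all MUL-HSC libraries than in the rest. Of all tested genes 3.75% lay higher in every PLT-HSC than in every MUL-HSC library. For PEM-HSC against MUL-HSC this share was 0.862%. The 9 monocyte and macrophage markers summed to 56.1 to 199 CPM for PLT-HSC, 60.1 to 307 CPM for PEM-HSC and 42.3 to 59.4 CPM for MUL-HSC, and their part in the Mef2c levels was not tested. Of the 6 tested, 3 had a positive and 3 a negative log2 fold change for PLT-HSC against MUL-HSC (median -0.10), with 0 called by edgeR. At an unadjusted p under 0.05 by edgeR stood 1 of them, Cd68, and 7.37% of all tested genes. In PEM-HSC against MUL-HSC 4 were positive and 2 negative (median 1.52). Again 0 were called by edgeR, and Cd68 alone had an unadjusted p under 0.05, as did 5.93% of all tested genes. Cd68, which encodes a lysosomal membrane protein and had the highest mean of the 9, was at 185, 159 and 26.3 CPM in PLT-HSC replicates 1, 2 and 3, 20.6 to 240 CPM for PEM-HSC and 11.4 to 19.7 CPM for MUL-HSC. Ctss, a lysosomal protease gene, ran the other way, at 0, 8.95 and 3.73 CPM in PLT-HSC replicates 1, 2 and 3, 0 to 26.0 CPM for PEM-HSC and 12.8 to 32.6 CPM for MUL-HSC. For Ctss PLT-HSC lay below MUL-HSC without overlap, as did 3.04% of all tested genes, while PEM-HSC overlapped with MUL-HSC. Csf1r, the receptor that defines the lineage, was at 0 in all PLT-HSC and MUL-HSC libraries and reached at most 0.0358 CPM for PEM-HSC. In PLT-HSC replicates 1, 2 and 3, Mef2c stood at 435, 341 and 368 CPM. PEM-HSC replicate 3, with the most Cd68 of all libraries, had 273 CPM of Mef2c. The relation of Cd68 to Mef2c was not tested.

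Markers of the lineages in which Mef2c is best known were mixed. The 7 B lymphoid markers summed to 90.9 to 152 CPM for PLT-HSC, 97.6 to 185 CPM for PEM-HSC and 105 to 168 CPM for MUL-HSC. Cd79b, a part of the B-cell receptor, made up nearly all of this sum, and Ms4a1, Pax5 and Igll1 were at 0 in every library. The 10 megakaryocyte and platelet markers summed to 127 to 241 CPM for PLT-HSC, 147 to 234 CPM for PEM-HSC and 141 to 325 CPM for MUL-HSC, with Gp6 at 0 in every library. Pf4, a platelet chemokine gene and the listed marker with the highest mean CPM, averaged 40.6 ± 18.5 CPM (SD) over the 3 PLT-HSC libraries, 61.2 ± 19.0 CPM over the 6 PEM-HSC libraries and 99.2 ± 69.7 CPM over the 4 MUL-HSC libraries. Of the 9 tested platelet markers 3 had a positive log2 fold change for PLT-HSC against MUL-HSC (median -0.96), with 0 called by edgeR. At an unadjusted p under 0.05 by edgeR stood 2 of them, Pf4 and Gp9, and 7.37% of all tested genes. Gp9, a platelet glycoprotein gene, was at 65.5 to 81.7 CPM for PLT-HSC, 28.1 to 97.3 CPM for PEM-HSC and 27.0 to 58.3 CPM for MUL-HSC. Clec1b, which encodes the receptor CLEC-2, was at 5.58 to 10.8 CPM for PLT-HSC, 0 to 8.77 CPM for PEM-HSC and 0 to 1.95 CPM for MUL-HSC. Both lay higher in every PLT-HSC than in every MUL-HSC library, as did 3.75% of all tested genes, and Gp5, a further glycoprotein gene, lay lower, as did 3.04%. The part of these cells in the Mef2c levels was not tested. The 6 endothelial markers summed to at most 16.8 CPM and the 6 muscle markers to at most 18.3 CPM in any library, with Cdh5 at 0 throughout.

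Mef2a stood at 62.5, 23.6 and 59.6 CPM in PLT-HSC replicates 1, 2 and 3. In PEM-HSC it ran from 23.6 CPM in replicate 2 to 74.5 CPM in replicate 4, with a median of 31.3 CPM. In MUL-HSC replicates 1 to 4 it stood at 65.7, 15.4, 42.9 and 50.9 CPM. High and low libraries occurred in each group, and the 3 groups overlapped over most of their range. Mef2a averaged 48.6 ± 21.7 CPM (SD) over the 3 PLT-HSC libraries, 41.0 ± 21.2 CPM over the 6 PEM-HSC libraries and 43.7 ± 21.1 CPM over the 4 MUL-HSC libraries.

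The log2 fold change of Mef2a was 0.12 (SE 0.52) in PLT-HSC against MUL-HSC, and 2 SE on each side of it span -0.92 to 1.16. In PEM-HSC against MUL-HSC it was -0.12 (SE 0.44), spanning -0.996 to 0.763. In PLT-HSC against PEM-HSC it was 0.23 (SE 0.48), spanning -0.72 to 1.19. These differences are smaller than the spread between libraries, and the sign turned when single libraries were left out: in PLT-HSC against MUL-HSC to -0.16 without MUL-HSC replicate 2 and to -0.12 without PLT-HSC replicate 1, in PEM-HSC against MUL-HSC to 0.17 without MUL-HSC replicate 1, and in PLT-HSC against PEM-HSC to -0.01 without PLT-HSC replicate 1.

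Mef2d stood at 14.2, 1.69 and 16.6 CPM in PLT-HSC replicates 1, 2 and 3. In PEM-HSC it ran from 0 in replicate 3 to 5.77 CPM in replicate 6, with a median of 3.20 CPM. In MUL-HSC replicates 1 to 4 it stood at 0.451, 0.270, 5.19 and 9.11 CPM. PLT-HSC replicates 1 and 3 lay above all other libraries, and replicate 2 lay inside the range of both other groups. Reads of Mef2d per library ran from 0 to 538, and the 0 in PEM-HSC replicate 3 allows up to 0.130 CPM, a floor of 3 counts that covers counting error only.

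Mef2d averaged 10.8 ± 8.01 CPM (SD) over the 3 PLT-HSC libraries, 3.07 ± 2.67 CPM over the 6 PEM-HSC libraries and 3.76 ± 4.24 CPM over the 4 MUL-HSC libraries. The log2 fold change was 1.51 (SE 1.70) in PLT-HSC against MUL-HSC, -0.27 (SE 1.43) in PEM-HSC against MUL-HSC and 1.78 (SE 1.52) in PLT-HSC against PEM-HSC. On each side of these values 2 SE span -1.89 to 4.90, -3.14 to 2.59 and -1.25 to 4.81, so they fix neither the size nor the direction of a difference. Without MUL-HSC replicate 4 the first was 2.39 and the second 0.63, with the sign turned. Leaving out each library in turn gave 1.12 to 2.39 for the first, -0.66 to 0.63 for the second and 1.42 to 2.28 for the third.

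Mef2b, a further MEF2 gene of mammals and no member here, had 11 reads in PLT-HSC replicate 2 (0.373 CPM) and 0 in the other 12 libraries, where 3 counts correspond to at most 0.183 CPM. It was too low to be tested.

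**Figure D2:**
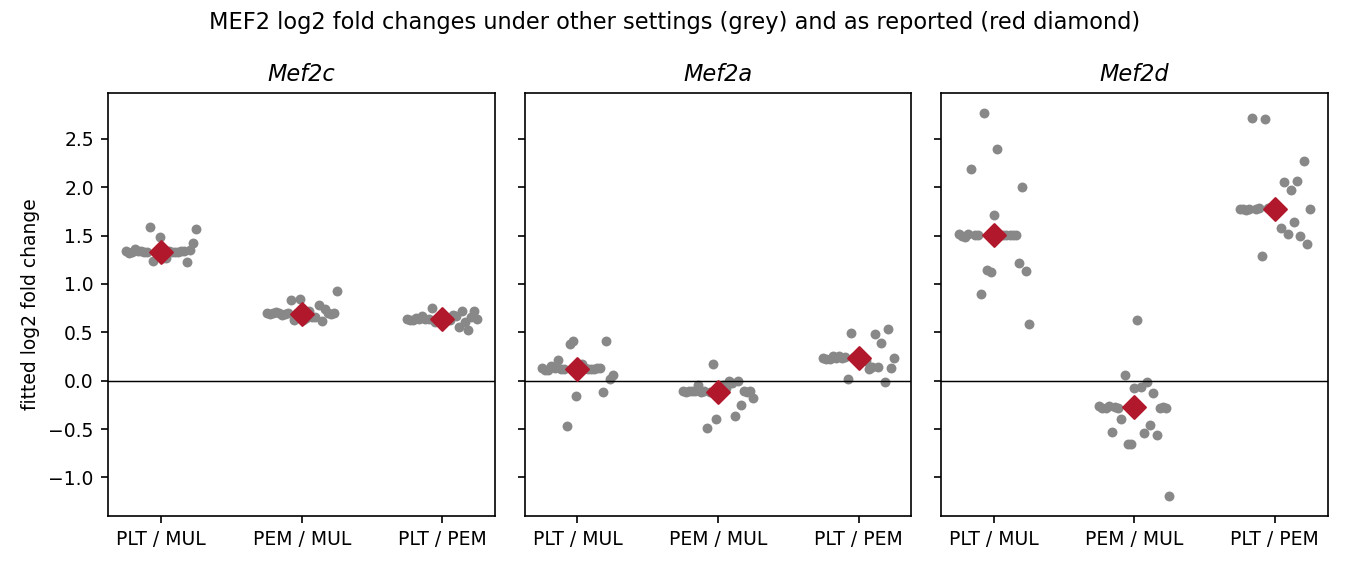
Fitted log2 fold change (vertical) of Mef2c, Mef2a and Mef2d as reported (red diamonds) and under other settings (grey points), for PLT-HSC against MUL-HSC, PEM-HSC against MUL-HSC and PLT-HSC against PEM-HSC. All Mef2c points lie above 0, while those of Mef2a, and of Mef2d in PEM-HSC against MUL-HSC, fall on both sides.

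Mef2c had the same sign in 72 of 72 alternative fits. Its log2 fold change ran from 1.23 to 1.59 in PLT-HSC against MUL-HSC, from 0.62 to 0.93 in PEM-HSC against MUL-HSC and from 0.53 to 0.75 in PLT-HSC against PEM-HSC, as the plot of other settings shows. The highest value in PEM-HSC against MUL-HSC came without MUL-HSC replicates 1 and 2.

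Levels of the 3 members were set beside each other as reads per kilobase of the longest annotated transcript, scaled to the library total as for CPM. On that scale Mef2c averaged 60.8 ± 7.72 (SD) over the 3 PLT-HSC libraries, 39.3 ± 7.96 over the 6 PEM-HSC libraries and 23.9 ± 4.25 over the 4 MUL-HSC libraries. Mef2a averaged 8.77, 7.41 and 7.90 and Mef2d 2.01, 0.568 and 0.696 in the same groups. Mef2c was the highest of the 3 in every library.

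Mef2c made up 80.9% to 92.2% of the length-scaled sum of the 3 members in PLT-HSC libraries, 65.5% to 91.2% for PEM-HSC libraries and 66.4% to 91.4% for MUL-HSC libraries. Mef2a made up 7.22% to 14.8% for PLT-HSC, 8.34% to 32.3% for PEM-HSC and 8.50% to 33.4% for MUL-HSC, and Mef2d at most 5.18% in any library. The shares of Mef2c overlapped between all groups.

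The length-scaled sum was 83.3, 58.9 and 72.5 in PLT-HSC replicates 1, 2 and 3. It ran from 41.6 to 54.5 for PEM-HSC, with a median of 47.5. It was 35.5, 32.8, 29.1 and 32.6 in MUL-HSC replicates 1 to 4. For this sum no groups overlapped, whereas PEM-HSC and MUL-HSC overlapped for Mef2c alone. PEM-HSC replicate 4, with the least Mef2c of its group, had the most Mef2a, and MUL-HSC replicate 2, with the most Mef2c of its group, had the least Mef2a. The sum consists mainly of Mef2c, so it is no independent measurement of that difference.

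**Figure D3:**
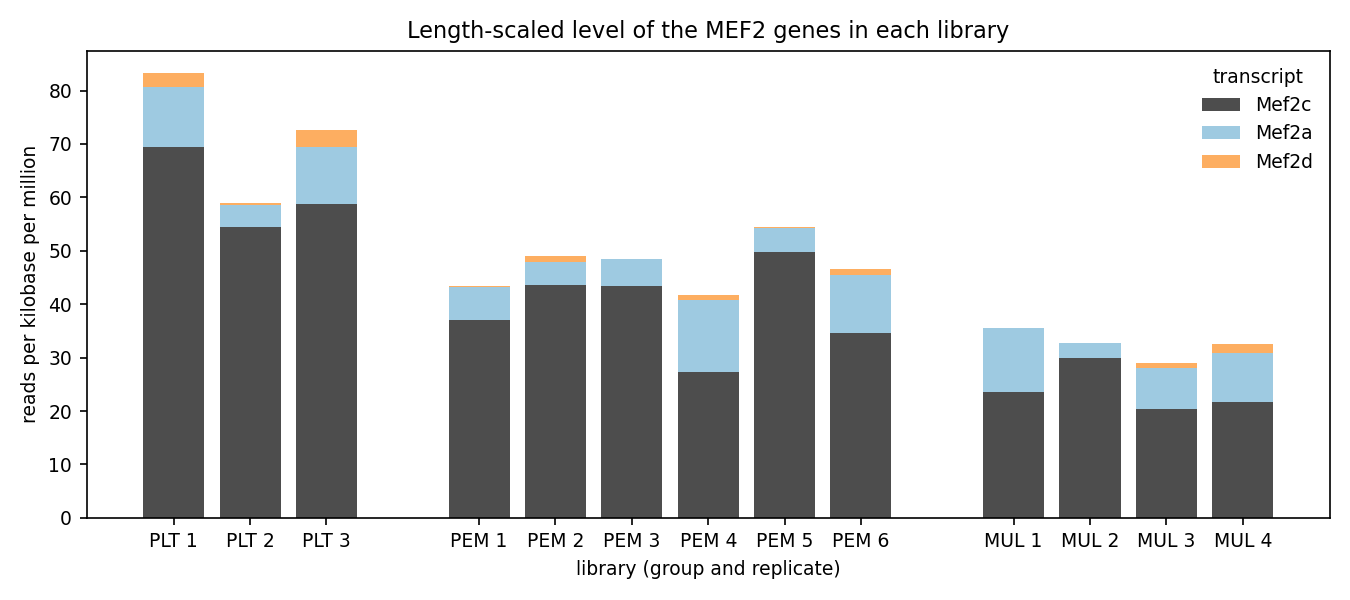
CPM per kilobase of the longest annotated transcript (vertical) of Mef2c, Mef2a and Mef2d, stacked for each of the 13 libraries. Mef2c fills most of every bar, and bar heights run from 58.9 to 83.3 for PLT-HSC, 41.6 to 54.5 for PEM-HSC and 29.1 to 35.5 for MUL-HSC.

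Within PEM-HSC, libraries with more Mef2a had less Mef2c. Over the 6 libraries the correlation of log2 CPM was -0.94 by Pearson and -0.94 by Spearman. Per kilobase, Mef2c was 10.9 times Mef2a in replicate 5 and 2.03 times in replicate 4. Over the deviations of all 13 libraries from their group means the correlation was -0.70 (Spearman -0.55), and -0.68 without the 2 libraries whose Mef2a deviated most, MUL-HSC replicate 2 and PLT-HSC replicate 2. Over the levels of all 13 libraries, which include the differences between groups, it was -0.24 (Spearman -0.23). PLT-HSC ran the other way, since its replicate 2 had the lowest level of both genes in the group.

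Other properties of the libraries varied along with both genes. The number of detected genes had a correlation of 0.71 with the deviations of Mef2a and -0.69 with those of Mef2c (n = 13). Within PEM-HSC the mean of the mitosis genes had one of 0.75 with Mef2a and -0.74 with Mef2c, and the gene counts of the library one of 0.81 and -0.84 (n = 6). Over the deviations of all 13 libraries these were weaker, at 0.09 and -0.28 for the mitosis genes and 0.15 and -0.23 for the gene counts. Without the 2 libraries that deviated most in each measure they were 0.19 and -0.09 for the mitosis genes (PLT-HSC replicates 3 and 1 left out). For the gene counts they were 0.22 and -0.62 (MUL-HSC replicates 4 and 3 left out). The share of ERCC counts had a correlation of -0.48 with the deviations of Mef2a and 0.61 with those of Mef2c (n = 13). The part of these properties in the relation was not tested. Of 15 pairs of measures described in this way, those of Mef2d with Mef2a and with Mef2c had correlations of 0.50 and -0.48 over the deviations. No p-value was computed.

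**Figure D4:**
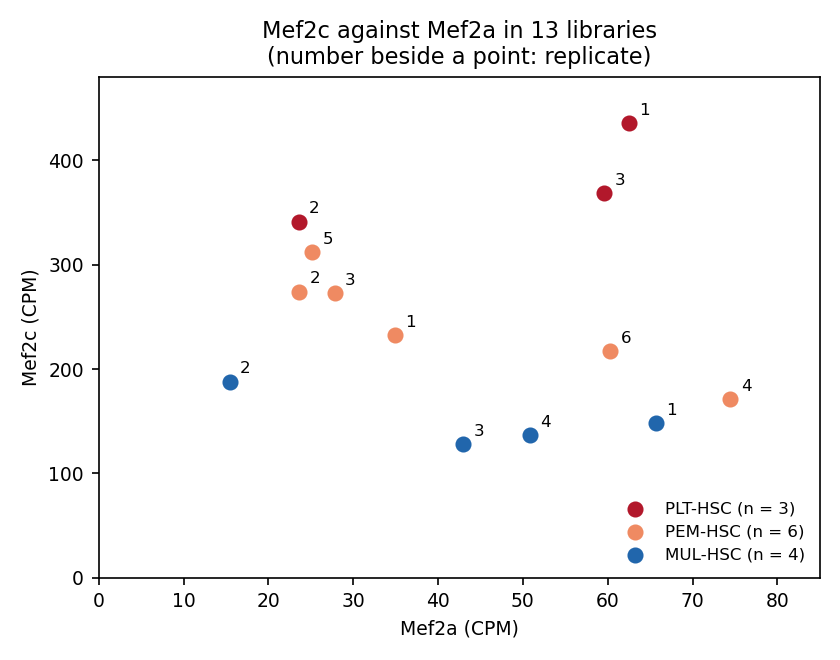
Mef2c (vertical, CPM) against Mef2a (horizontal, CPM) in each of the 13 libraries, coloured by group and numbered by replicate. PEM-HSC libraries run from replicate 5 at upper left (25.2 CPM of Mef2a and 312 CPM of Mef2c) to replicate 4 at lower right (74.5 and 171 CPM), while PLT-HSC replicates 1 and 3 are high for both genes.

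Genes most like a member were ranked by Pearson's r of log2 CPM over the 13 libraries, among 8348 other genes for Mef2a and Mef2c and 8349 for Mef2d. For Mef2c these were Sord, which encodes sorbitol dehydrogenase (r = 0.86), the zinc finger gene Zfp61 (0.86), Nrg4, which encodes the growth factor neuregulin 4 (0.85), Prcp, which encodes a lysosomal carboxypeptidase (0.85), and Bex4 (0.83). By rank Nrg4 was the closest of the 5 (Spearman 0.93), at 224 CPM for PLT-HSC, 78.2 CPM for PEM-HSC and 15.2 CPM for MUL-HSC on average. Prcp averaged 194, 138 and 67.2 CPM in the same groups.

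For Mef2a the closest genes were Tmem241 (r = 0.82), the proteasome activator gene Psme4 (0.82), the deubiquitinase gene Usp8 (0.82), Fbxl8 (0.79) and the RNA-binding protein gene Caprin1 (0.79). For Mef2d they were Crispld1 (r = 0.92), Klhl42 (0.83), Zfp146 (0.82), Cep83os (0.82) and Fam120c (0.80). No gene stands in more than 1 of the 3 lists. All r rest on 13 libraries, include the differences between groups, and are a description.

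Proteins that hold MEF2 in check, release it, work beside it or depend on it were measured through 98 genes in 8 lists, of which 82 were tested. By edgeR at an adjusted p under 0.05, 0 of the 82 were called in PLT-HSC against MUL-HSC (0.0479% of all tested genes), 0 in PEM-HSC against MUL-HSC (0.00798% of all) and 0 in PLT-HSC against PEM-HSC (0% of all). DESeq2 called 1 of them, Sik3 in PEM-HSC against MUL-HSC, where it called 175 of all tested genes, and voom called 0. Of the 16 genes not tested, 10 had 0 reads in every library, among them Myocd, Nr4a3, Il7r and Rag1.

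At an unadjusted p under 0.05 by edgeR, 5 of the 82 pathway genes (6.1%) passed in PLT-HSC against MUL-HSC, where 7.37% of all tested genes did. In PEM-HSC against MUL-HSC 5 passed (6.1%, and 5.93% of all), and in PLT-HSC against PEM-HSC 3 passed (3.66%, and 3.73% of all). These shares lie near the background. Ranges did not overlap for 5 of the 82 in PLT-HSC against MUL-HSC (6.1%, and 6.79% of all), 1 in PEM-HSC against MUL-HSC (1.22%, and 1.49% of all) and 3 in PLT-HSC against PEM-HSC (3.66%, and 2.16% of all). Positive log2 fold changes made up 63.4%, 58.5% and 57.3% of the 82 in the 3 comparisons in that order, beside 52.4%, 50.7% and 51.5% of all tested genes. The median log2 fold change of the 82 was 0.17 in PLT-HSC against MUL-HSC, where that of all tested genes was 0.04. It was 0.12 in PEM-HSC against MUL-HSC (0.01 for all) and 0.06 in PLT-HSC against PEM-HSC (0.02 for all).

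**Figure D5:**
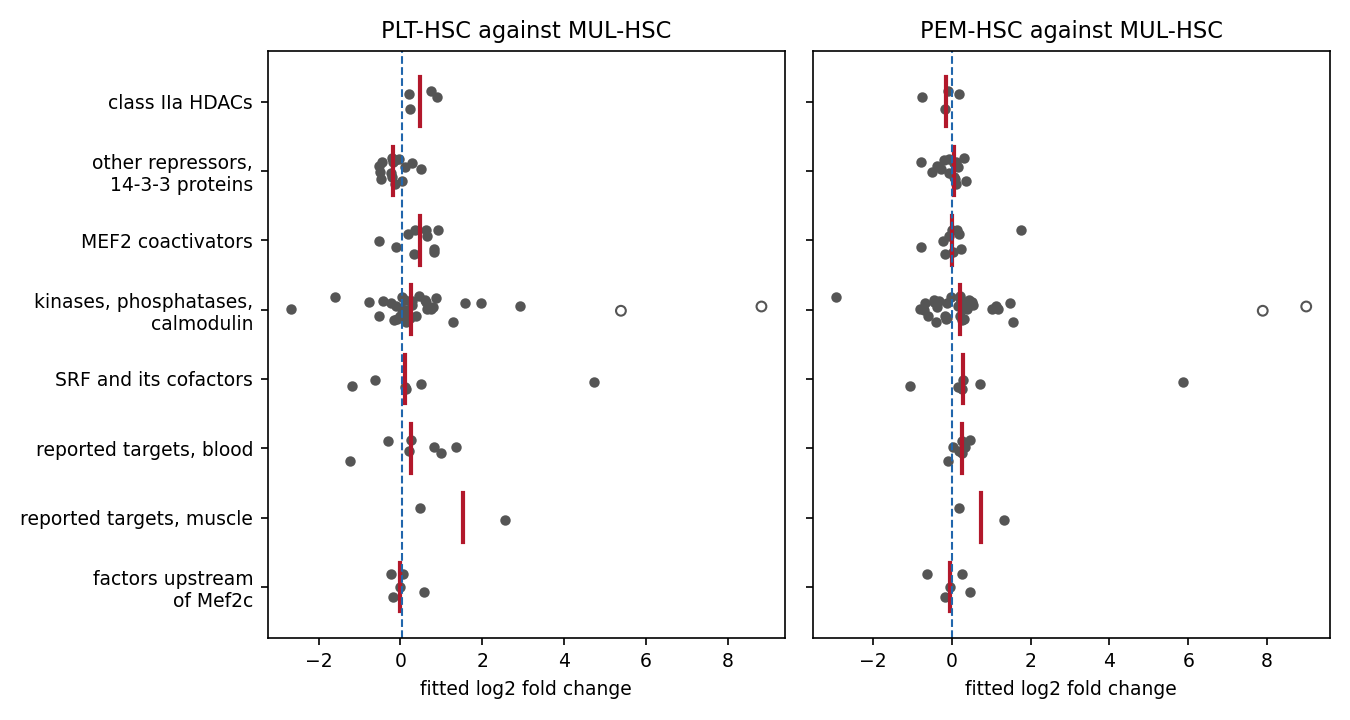
Fitted log2 fold change (horizontal) of each tested gene of the 8 lists in PLT-HSC against MUL-HSC (left) and PEM-HSC against MUL-HSC (right); hollow points are genes at 0 in all MUL-HSC libraries, red bars are list medians and the dashed line is the median of all tested genes. Apart from the muscle targets, with 2 tested genes, list medians lie between -0.19 and 0.49 on the left and between -0.14 and 0.28 on the right, and no gene shown was called by edgeR.

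Class IIa histone deacetylases bind MEF2 proteins and silence their targets. Hdac9 averaged 33.3 ± 24.2 CPM (SD) over the 3 PLT-HSC libraries, 31.8 ± 12.7 CPM over the 6 PEM-HSC libraries and 27.8 ± 10.3 CPM over the 4 MUL-HSC libraries. Hdac7 averaged 19.7, 14.4 and 16.3 CPM in the same groups, Hdac4 10.5, 5.52 and 5.87 CPM, and Hdac5 5.41, 1.64 and 2.65 CPM. All 4 had a positive log2 fold change for PLT-HSC against MUL-HSC (0.22 to 0.90) and in PLT-HSC against PEM-HSC (0.04 to 1.65), and 1 of 4 in PEM-HSC against MUL-HSC. PLT-HSC replicate 3 alone was at 35.5 CPM for Hdac7, 24.9 CPM for Hdac4 and 10.3 CPM for Hdac5, the highest of all libraries for each. None of the 4 passed the test or separated the groups in any comparison. Their SE ran up to 1.95, so changes of the size seen for Mef2c would not have stood out in the lower members.

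Among the 15 other repressors and chaperones are the 14-3-3 proteins, which keep phosphorylated class IIa deacetylases in the cytoplasm. Ywhae averaged 642 ± 64.0 CPM (SD) over the 3 PLT-HSC libraries, 736 ± 75.9 CPM over the 6 PEM-HSC libraries and 756 ± 30.5 CPM over the 4 MUL-HSC libraries. Ywhab averaged 637, 619 and 695 CPM in the same groups, and Ywhaz 472, 473 and 488 CPM. The list had a positive log2 fold change for 4 of 15 in PLT-HSC against MUL-HSC (median -0.19), 8 of 15 in PEM-HSC against MUL-HSC (median 0.05) and 5 of 15 in PLT-HSC against PEM-HSC (median -0.15), with 0 called. Genes with close copies, such as the 14-3-3 and calmodulin genes, may have been given each other's reads.

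Of this list 3 genes, Ywhae, Ywhaq and Hdac1, lay lower in every PLT-HSC library than in every MUL-HSC library and are named for their values. Ywhaq, a further 14-3-3 gene, was at 232 to 251 CPM for PLT-HSC and 274 to 415 CPM for MUL-HSC, and its log2 fold change was -0.51 (SE 0.20, adjusted p = 0.63 by edgeR). Hdac1, a class I deacetylase, was at 88.9 to 118 CPM for PLT-HSC and 131 to 153 CPM for MUL-HSC. Of all tested genes 3.04% lay lower without overlap in this comparison.

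Coactivators acetylate histones or join MEF2 on DNA. Of 12 such genes 10 were tested, and 8 had a positive log2 fold change for PLT-HSC against MUL-HSC (median 0.49), 6 in PEM-HSC against MUL-HSC (0.02) and 8 in PLT-HSC against PEM-HSC (0.54), with 0 called. Ncoa2, a steroid receptor coactivator, averaged 104 ± 45.8 CPM (SD) over the 3 PLT-HSC libraries, 59.4 ± 36.7 CPM over the 6 PEM-HSC libraries and 53.3 ± 25.4 CPM over the 4 MUL-HSC libraries. Nfatc3, a factor that calcineurin activates, averaged 80.4, 55.8 and 62.5 CPM in the same groups. Ep300, the acetyltransferase p300, averaged 51.2, 33.6 and 28.1 CPM, and Kat2b, another acetyltransferase, 50.8, 39.4 and 38.5 CPM. For Ep300, PLT-HSC replicate 3 stood at 85.6 CPM and the other PLT-HSC libraries at 27.9 and 40.0 CPM. The ranges of these 4 genes overlapped between PLT-HSC and both other groups.

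Kinases, phosphatases and calmodulins that act on MEF2 proteins or on class IIa deacetylases numbered 34, all tested. Of these 24 had a positive log2 fold change for PLT-HSC against MUL-HSC (median 0.26), 19 in PEM-HSC against MUL-HSC (0.21) and 22 in PLT-HSC against PEM-HSC (0.12), with 0 called by edgeR. DESeq2 called 1, Sik3, in PEM-HSC against MUL-HSC, beside 175 of all tested genes. Calm2, a calmodulin gene, averaged 2041, 2013 and 2170 CPM for PLT-HSC, PEM-HSC and MUL-HSC libraries. Camk1, which encodes a calmodulin-dependent kinase, averaged 245, 290 and 231 CPM in the same groups.

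The MAP kinases that act on MEF2 proteins are p38 alpha, encoded by Mapk14, and ERK5, encoded by Mapk7. Mapk14 averaged 173 ± 50.2 CPM (SD) over the 3 PLT-HSC libraries, 164 ± 43.9 CPM over the 6 PEM-HSC libraries and 164 ± 38.7 CPM over the 4 MUL-HSC libraries, with a log2 fold change of 0.05 (SE 0.26) in PLT-HSC against MUL-HSC. Mapk7 was at 7.55 to 9.30 CPM for PLT-HSC, 0 to 5.30 CPM for PEM-HSC and 0 to 7.66 CPM for MUL-HSC. PLT-HSC lay above PEM-HSC without overlap for Mapk7, as did 1.1% of all tested genes, while it overlapped with MUL-HSC.

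Calcineurin, the calcium-dependent phosphatase, was read through its catalytic subunit gene Ppp3ca and its regulatory subunit gene Ppp3r1. Ppp3ca stood at 112, 56.8 and 94.9 CPM in PLT-HSC replicates 1, 2 and 3. It ran from 23.2 to 50.7 CPM for PEM-HSC and from 28.6 to 74.4 CPM for MUL-HSC. PLT-HSC lay above PEM-HSC without overlap but overlapped with MUL-HSC, and the log2 fold change for PLT-HSC against PEM-HSC was 1.19 (SE 0.36, adjusted p = 1 by edgeR). Ppp3r1 averaged 131 ± 76.4 CPM (SD) over the 3 PLT-HSC libraries, 73.9 ± 40.2 CPM over the 6 PEM-HSC libraries and 129 ± 85.4 CPM over the 4 MUL-HSC libraries.

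Salt-inducible kinases phosphorylate class IIa deacetylases and so move them away from MEF2. Sik3, named after its values were seen, was at 10.2 to 24.7 CPM for PLT-HSC, 12.1 to 31.2 CPM for PEM-HSC and 5.33 to 9.11 CPM for MUL-HSC. All PLT-HSC and PEM-HSC libraries lay above all MUL-HSC libraries, which held for 3.75% of all tested genes in the first comparison and 0.862% in the second. The log2 fold change was 1.29 (SE 0.59, adjusted p = 0.66 by edgeR) in PLT-HSC against MUL-HSC and 1.54 (SE 0.53, adjusted p = 0.68) in PEM-HSC against MUL-HSC. Sik3 did not pass the edgeR test in either, and its call by DESeq2 in PEM-HSC against MUL-HSC stands alone among the tools. In that comparison DESeq2 called 175 of all tested genes.

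Serum response factor binds DNA through the same kind of domain. Of Srf and its 6 cofactor genes 6 were tested, with 4 positive log2 fold changes for PLT-HSC against MUL-HSC (median 0.12), 5 in PEM-HSC against MUL-HSC (0.28) and 0 in PLT-HSC against PEM-HSC (-0.17), and 0 called. Srf averaged 11.4 ± 13.7 CPM (SD) over the 3 PLT-HSC libraries, 12.3 ± 5.79 CPM over the 6 PEM-HSC libraries and 7.48 ± 3.52 CPM over the 4 MUL-HSC libraries. The cofactor gene Elk3 averaged 66.2, 69.9 and 61.4 CPM in the same groups, and Mkl2 49.0, 53.3 and 43.7 CPM.

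Genes reported as MEF2 targets in blood numbered 11, of which 7 were tested. A positive log2 fold change was found for 5 in PLT-HSC against MUL-HSC (median 0.25), 6 in PEM-HSC against MUL-HSC (0.26) and 4 in PLT-HSC against PEM-HSC (0.04), with 0 called. Jun, an AP-1 gene, averaged 33.6 ± 11.8 CPM (SD) over the 3 PLT-HSC libraries, 23.8 ± 11.97 CPM over the 6 PEM-HSC libraries and 19.1 ± 20.002 CPM over the 4 MUL-HSC libraries. Klf2, a zinc finger gene downstream of ERK5, averaged 42.6 ± 65.1, 17.4 ± 14.3 and 16.6 ± 16.4 CPM in the same groups, and Egr1, an immediate early gene, 235 ± 266, 141 ± 72.4 and 118 ± 88.8 CPM. In PLT-HSC both means rest on replicate 1: Klf2 stood at 118, 2.61 and 7.49 CPM in replicates 1, 2 and 3, and Egr1 at 538, 38.5 and 129 CPM. Replicates 2 and 3 of PLT-HSC lay below the PEM-HSC mean for both genes. Foxo1 averaged 35.8, 42.1 and 30.4 CPM, Nr4a1 5.68, 8.71 and 6.97 CPM, and Klf4 1.24, 2.75 and 2.95 CPM. Il7r, the interleukin 7 receptor gene of lymphoid progenitors, had 0 reads in every library.

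Of 10 genes reported as MEF2 targets in muscle 2 were tested, and neither was called. Atp2a2, a calcium pump of the endoplasmic reticulum that many cells use, averaged 76.7 ± 59.1 CPM (SD) over the 3 PLT-HSC libraries, 59.9 ± 23.1 CPM over the 6 PEM-HSC libraries and 52.4 ± 13.6 CPM over the 4 MUL-HSC libraries. Myom1, a gene of the muscle sarcomere, averaged 5.02, 2.01 and 0.765 CPM in the same groups.

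Factors reported upstream of Mef2c in blood numbered 6, of which 5 were tested and 0 called. Spi1, which encodes PU.1, averaged 124 ± 20.7 CPM (SD) over the 3 PLT-HSC libraries, 122 ± 29.2 CPM over the 6 PEM-HSC libraries and 122 ± 11.002 CPM over the 4 MUL-HSC libraries, with a log2 fold change of -0.01 (SE 0.24) in PLT-HSC against MUL-HSC. Meis1, a homeobox partner of HOX proteins, averaged 485 ± 178, 452 ± 104 and 325 ± 37.8 CPM in the same groups. Its log2 fold change was 0.58 (SE 0.24, adjusted p = 0.65 by edgeR) in PLT-HSC against MUL-HSC and 0.46 (SE 0.21, adjusted p = 0.82) in PEM-HSC against MUL-HSC. Lyl1, a basic helix-loop-helix gene, averaged 119, 122 and 137 CPM in the same groups.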

How the data were processed

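RNA was measured in 13 libraries of 100 cells, made with Smart-seq+ and Nextera XT per the labels. The deposited values are raw read counts per gene symbol; Trimmomatic, FastQC, STAR, featureCounts and mouse build mm9 are named per the submitters' processing notes, and versions, settings and strand mode are not given in the sources used here. Counts include PCR copies, so floors of 3 counts cover counting error only, and without a stated strand mode reads of antisense genes cannot be told apart. The 92 ERCC rows were left out of library totals (0.0191% to 0.0612% of counts). Groups came from the labels.

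Counts were fitted with edgeR 4.0.16 in R 4.3.3 (filterByExpr, TMM, robust quasi-likelihood test, Benjamini-Hochberg adjustment over 12536 genes, calls at 0.05), with all 13 libraries and a term per group. Each SE is the size of the log2 fold change divided by the square root of the F value of the quasi-likelihood test. CPM uses each library's gene total, and log2 CPM a prior count of 2. Lengths came from an annotation of build GRCm38.

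The members and gene lists were chosen with earlier results of these data known, and 2 listed marker genes are not reported here and enter no sum. Named pathway genes are a set of 16 and the 3 of each list with the highest mean CPM, of which some are given by their range, and like genes the top 5 by r with a mean of at least 10 CPM. Alternatives were DESeq2 1.42.0, voom (limma 3.58.1), other scalings and filters, a covariate, a replicate block, and left-out libraries. On simulated counts for PLT-HSC against MUL-HSC (12191 genes tested), 1 of 50 genes set 2-fold apart and 19 of 50 set 4-fold apart passed.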

Additional observations from a re-analysis of the deposited data

Results flagged for a closer look

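In PEM-HSC and MUL-HSC, 13 of 118 sets of values had 1 library far from the others, and none of the members' own 6 sets was among them. PLT-HSC, with 3 libraries, was not checked in this way. The rate of 1 in 20 that holds for normal values does not apply here. A set with reads in only 1 library is always flagged. Among genes tied to MEF2, Srf stood at 12.7 CPM in MUL-HSC replicate 4, beside 5.002 to 6.29 CPM in the other MUL-HSC libraries. Myom1 stood at 3.01 CPM in MUL-HSC replicate 2, beside at most 0.0483 CPM in the others of that group. Ppargc1a stood at 4.20 CPM in PEM-HSC replicate 3, beside at most 0.259 CPM, and at 0.270 CPM in MUL-HSC replicate 1, beside at most 0.0386 CPM. Ebf1, a B-cell factor, stood at 5.12 CPM in PEM-HSC replicate 4, beside at most 0.0377 CPM.

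Among marker genes, Cd48 stood at 15.9 CPM in PEM-HSC replicate 1 and at 0 in the other PEM-HSC libraries. Flt3 stood at 5.34 CPM in PEM-HSC replicate 4, beside at most 0.953 CPM. Cd68 stood at 240 CPM (239.8) in PEM-HSC replicate 3, beside 20.6 to 79.6 CPM. Single libraries had reads where the rest of their group had 0 for Kdr (1.83 CPM) and Acta1 (0.0611 CPM) in MUL-HSC replicate 3, Flt4 (2.43 CPM) and Ckm (1.54 CPM) in MUL-HSC replicate 2, and Plvap (0.0377 CPM) in PEM-HSC replicate 6.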

How the results depend on the processing

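The 213 alternative log2 fold changes of the members each moved by less than the spread between libraries. Genes called by edgeR over the whole table numbered 6 in PLT-HSC against MUL-HSC, 1 in PEM-HSC against MUL-HSC and 0 in PLT-HSC against PEM-HSC (467 at an unadjusted p under 0.05), and 33 of 72 alternatives moved such a count. The cause was not tested. In PLT-HSC against MUL-HSC the count was 11 with no filter, 14 with a mean of at least 10 CPM, 249 by DESeq2, 0 by voom (924 by edgeR at an unadjusted p under 0.05), 1 with only the groups compared, and 1 without both MUL-HSC replicates 1 and 2. In PEM-HSC against MUL-HSC it was 175 by DESeq2, 0 with only the groups compared and 0 with detected genes as a covariate. In PLT-HSC against PEM-HSC it was 93 by DESeq2 and 1 by voom. Leaving out each library in turn gave 1 to 37, 0 to 4 and 0 to 2 calls in the 3 comparisons, and all libraries but PEM-HSC replicates 2, 4 and 5 moved the first count by over 1.5 times. Leaving out a PLT-HSC library gave 2, 1 and 37 calls for replicates 1, 2 and 3, leaving out a MUL-HSC library gave 1, 2, 21 and 3 for replicates 1 to 4, and PEM-HSC replicates 1, 3 and 6 gave 3 each. Of pathway genes, DESeq2 called 1 in PEM-HSC against MUL-HSC; leaving out each library in turn gave 0 to 0.

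Mef2a turned to -0.47 in PLT-HSC against MUL-HSC with detected genes as a covariate. Without both MUL-HSC replicates 1 and 2, Mef2d was 0.58 in PLT-HSC against MUL-HSC. Mef2d could not be fitted with the filter at a mean of 10 CPM. With the mean transcript length, Mef2c made up 84.95% to 94.4% of the family for PLT-HSC, 72.8% to 93.6% for PEM-HSC and 73.1% to 93.8% for MUL-HSC.

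Replicate numbers are shared between groups, but same-numbered libraries did not deviate together (10 pairs, r from -0.22 to 0.05), so the main fit did not pair them. Such correlations cannot show whether same-numbered libraries shared a batch with a small effect. With a replicate block, 2 genes were called in PLT-HSC against MUL-HSC, 0 in PEM-HSC against MUL-HSC and 0 in PLT-HSC against PEM-HSC. With that block Mef2c had log2 fold changes of 1.23, 0.63 and 0.60 in the 3 comparisons, Mef2a 0.38, -0.12 and 0.50, and Mef2d 2.77, 0.06 and 2.71.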

Other observations

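Ranked by deviations from the group means, so that group differences do not enter, the genes most like Mef2c over the 13 libraries were Ube2e3 (r = 0.89), Itfg1 (0.84), Amn1 (0.81), Slc16a9 (0.80) and Npepps (0.78). None of them is among the genes most like it by level. Ube2e3, which encodes a ubiquitin-conjugating enzyme, averaged 306 CPM in PLT-HSC, 367 CPM in PEM-HSC and 448 CPM in MUL-HSC, the reverse of the order of Mef2c. For Mef2a the closest were Atrx (0.87), which encodes a chromatin remodeller, Atxn7l1 (0.86), Tmem241 (0.86), Usp8 (0.85) and Psme4 (0.84), and 3 of these were also closest by level. For Mef2d they were Crispld1 (0.94), Cep83os (0.88), Fam120c (0.86), Mafg (0.82), which encodes a small MAF protein, and Gypc (0.82). These rankings rest on 13 libraries, and no p-value was computed.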
